A study of Homo sapiens with 15 samples.

Results

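Chromosome 22 held 8117 of the 647617 peaks in 4 chromatin immunoprecipitation sequencing (ChIP-seq) lists from MDA-MB-231, a widely used human cell line derived from triple-negative breast cancer. The members were chosen by position, as every listed peak on chromosome 22 of hg19, and the chromosome itself was selected on its peak numbers and scores in these same lists. Its densities and scores are therefore descriptions without a test. H3K4ox replicate 1 gave 3612 of them, H3K4ox replicate 2 gave 3473, RUVBL2 gave 773 and H2A.Z gave 259. The study concerns LOXL2 and chromatin compaction. Its 15 samples include these 4 ChIP libraries, made with a handmade H3K4ox antibody and commercial antibodies to H2A.Z and RUVBL2 from cells for which the labels name no knockdown or treatment. The input, the 8 RNA-seq and the 2 ATAC-seq samples were not analysed here. The depth of sequencing was unknown because the lists hold no reads. H2A.Z and RUVBL2 had 1 library each, and nothing states that the 2 H3K4ox libraries came from separate cultures, so the spread between them may be technical.

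H3K4ox is histone H3 with an oxidised lysine 4, the product of LOXL2, a lysyl oxidase that also acts in the nucleus. RUVBL2 is an ATPase of the complexes that exchange the histone variant H2A.Z into nucleosomes, and H2A.Z is best known at promoters and enhancers. Chromosome 22 is a small acrocentric chromosome. Its short arm is mostly repeat sequence, and its long arm is rich in genes and carries low-copy repeats near the centromere.

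H3K4ox peaks were slightly denser on chromosome 22 than on the average chromosome, whereas H2A.Z and RUVBL2 peaks were sparse. Peaks lay between positions 16071727 and 51241703, a span of 35.2 Mb. H3K4ox had 100.7 ± 2.8 peaks per Mb (SD, n = 2), which was 1.09 ± 0.01 times the mean of the densities of chromosomes 1 to 22 and X. H2A.Z had 7.36 peaks per Mb, or 0.55 times its mean, and RUVBL2 had 21.98 per Mb, or 0.57 times. Among the 23 chromosomes, chromosome 22 ranked 17th from the lowest for both H3K4ox libraries, 4th for H2A.Z and 3rd for RUVBL2. The H3K4ox excess lay in low-scoring peaks. In the lower 50% of each list by score, a value per peak from the authors' peak caller, the relative density was 1.29 ± 0.004 (SD, n = 2), and in the upper 50% it was 0.88 ± 0.02. Counted as covered bases it was also below the mean, at 0.92. RUVBL2 was at 0.77 in its lower 50% and at 0.37 in its upper 50%, the lowest of the 23 chromosomes. H2A.Z was at 0.52 and 0.58.

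In 2 Mb steps, numbered 1 (16 to 18 Mb) to 18 (50 to 52 Mb), H3K4ox peaks ranged from 106 ± 7 (SD, n = 2) in step 17 to 306 ± 3 in step 12, with a median of 189. Step 13, from 40 to 42 Mb, followed with 303 ± 27, and step 14 with 279 ± 13. These 3 steps, from 38 to 44 Mb, were the densest for H3K4ox. They were also the densest for H2A.Z, with 36, 27 and 21 peaks, where step 8 tied with 21. The sparsest H3K4ox steps were step 17, step 18 with 119 ± 1 and step 10 with 132 ± 4. Steps 1 and 18 were filled only in part, since the first peak lay after 16 Mb and the last before 52 Mb.

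H2A.Z ranged from 0 peaks in step 17 to 36 in step 12, with 4 in step 6 and 5 in step 10 as the next sparsest. RUVBL2 had 85 peaks in step 1, 85 in step 13 and 69 in step 14, and its sparsest steps were step 17 with 3, step 6 with 8 and step 15 with 17. RUVBL2 thus shared its dense steps 13 and 14 with H3K4ox, but not step 1, where H3K4ox had 165 ± 1 peaks. Across the 18 steps, which share libraries and differ in sequence content, the Spearman correlation was 0.96 between the H3K4ox libraries, 0.88 between H3K4ox and H2A.Z, 0.75 between H3K4ox and RUVBL2 and 0.85 between H2A.Z and RUVBL2.

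**Figure D1:**
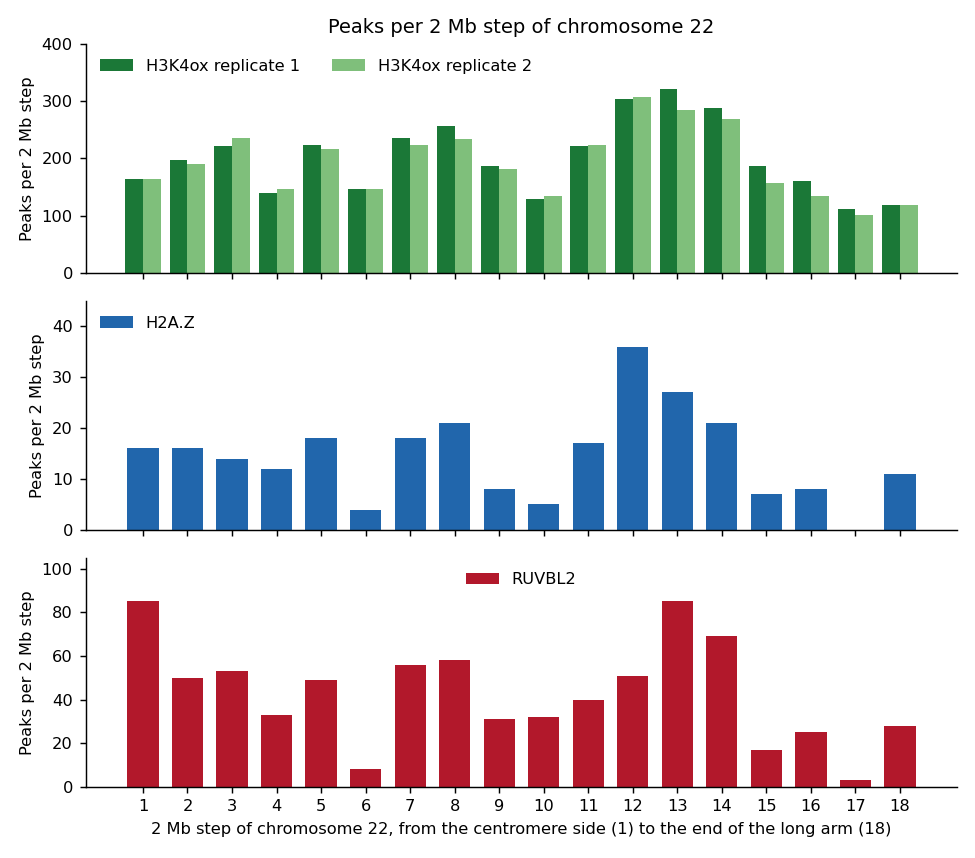
Number of peaks in each 2 Mb step of chromosome 22 (x axis, steps 1 to 18) for the 2 H3K4ox libraries, H2A.Z and RUVBL2 (y axes, peaks per step, different scales). The H3K4ox and H2A.Z bars are highest in steps 12 to 14, and step 17 holds 0 H2A.Z and 3 RUVBL2 peaks.

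Scores on chromosome 22 were low for H3K4ox, lower still for RUVBL2 and not low for H2A.Z. A score above the median of the whole list, which 50% of all peaks in each list have, was found in 41.1% ± 0.6 of H3K4ox peaks (SD, n = 2). It was found in 32.0% of RUVBL2 peaks (95% Wilson interval 28.8 to 35.3) and in 53.3% of H2A.Z peaks (47.2 to 59.3). RUVBL2 on chromosome 22 had the lowest share of the 23 chromosomes, and chromosome 16 came next with 39.9%. Both H3K4ox libraries ranked 3rd from the lowest, with chromosome 13 at 40.3% and 40.2% and chromosome 16 at 41.4% and 40.5%. H2A.Z ranked 21st. Its interval, which covers only counting error as if peaks were independent, held 50%, and the distance from the list was not tested. The working description of the chromosome as one of weak H3K4ox peaks was taken from these same scores, so the H3K4ox values restate it. RUVBL2 stood further from the other chromosomes.

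The H3K4ox difference grew towards the top of the list. The median score was 74.0 ± 1.9 (SD, n = 2) on chromosome 22 and 82.7 ± 1.0 in the whole lists. At the 10th percentile the chromosome 22 score was 0.99 times that of the list in replicate 1 and 0.98 times in replicate 2. At the 90th percentile it was 0.67 and 0.63 times. Each list starts at a score of 50 and its 10th percentile was 54.1 in replicate 1 and 54.0 in replicate 2, so little difference could show there. High scores were scarce on chromosome 22. Each list was cut at its own score deciles into 10 groups, from group 1 (lowest) to group 10 (highest). Group 10 held 4.07% and 4.15% of the chromosome 22 peaks of the 2 H3K4ox libraries, the lowest share of the 23 chromosomes in both. Groups 1 and 2 together were overfilled, with 12.3% and 12.5% in replicate 1. For RUVBL2, group 2 held 16.2% and group 10 held 3.75%. H2A.Z had 12.4% in group 1, 13.5% in group 9 and 9.65% in group 10, with no run in one direction.

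Peaks on chromosome 22 were also narrow, and score rises with width. Median widths were 772 ± 25 bp for H3K4ox (SD, n = 2) against 830 ± 16 bp in the whole lists. They were 727 against 870 bp for RUVBL2 and 760 against 808 bp for H2A.Z. Among peaks of 800 to 900 bp, the shares above the list's median were 37.2% on chromosome 22 and 39.9% over all chromosomes in H3K4ox replicate 1, and 43.2% and 44.2% in replicate 2. For RUVBL2 they were 41.4% of 87 peaks and 37.4%. At this width the H3K4ox shares lay closer together than over all widths, and RUVBL2 on chromosome 22 was the higher of the pair. Score and width come from the same peak calls, and whether width accounts for the low scores was not tested. For H2A.Z the shares were 70.7% of 41 peaks and 52.9%.

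**Figure D2:**
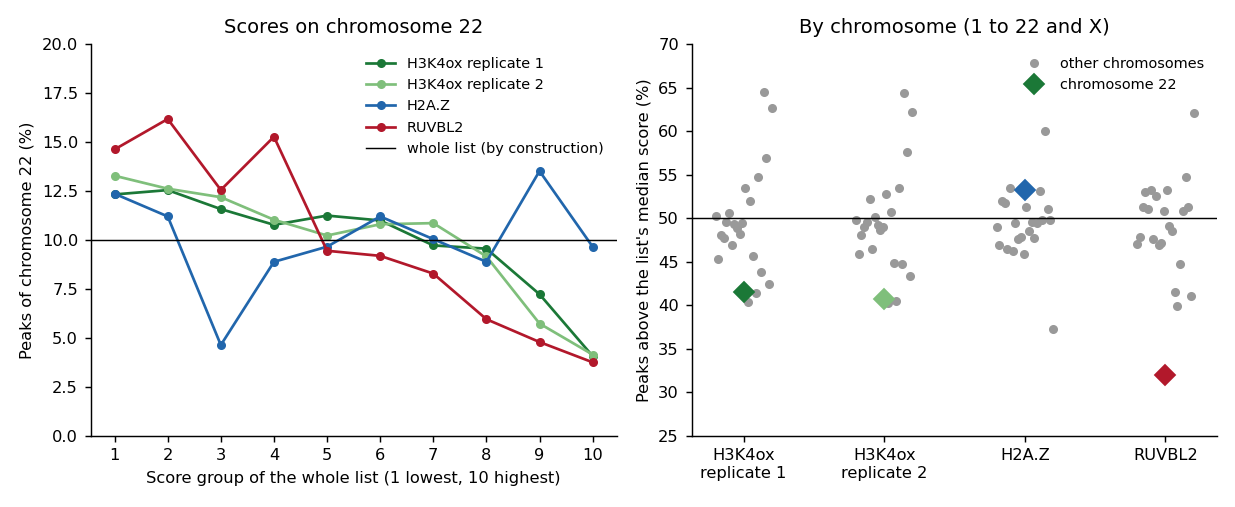
Left, percentage of the chromosome 22 peaks of each list (y axis) in 10 score groups that each hold 10% of the whole list (x axis), with the black line at 10%; right, percentage of peaks above the list's median score (y axis) for chromosome 22 (diamonds) and the other chromosomes (grey points) in each list (x axis), with the black line at 50%. Both H3K4ox lines and the RUVBL2 line fall to about 4% in group 10, and the RUVBL2 diamond at 32.0% lies under each grey point of its list.

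Low H3K4ox scores were spread along the chromosome. The share above the list's median ranged from 32.6% ± 3.1 (SD, n = 2) in step 16 to 51.0% ± 0.7 in step 17, with a median of 40.0%, and 16 of 18 steps were below 50%. The exceptions were step 17 and step 3 (20 to 22 Mb), with 50.8% ± 1.1. The weakest steps were 16, 15 (33.6% ± 0.9) and 10 (33.7% ± 3.7). For RUVBL2, 16 of 18 steps were below 50%. The exceptions were step 7 (28 to 30 Mb), with 53.6% of 56 peaks, and step 17, with 66.7% of 3.

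The scarcity of H2A.Z and RUVBL2 relative to H3K4ox ran along nearly the whole chromosome. Over all chromosomes 100 H3K4ox peaks (mean of both libraries) were matched by 15.5 peaks of H2A.Z and 43.9 of RUVBL2, and on chromosome 22 by 7.31 and 21.8. Both ratios were the 2nd lowest of the 23 chromosomes, after chromosome 15 (6.15 and 20.8) and before chromosome 16 (8.65 and 25.2). H2A.Z was below its genome-wide ratio in 18 of 18 steps of chromosome 22, where the ratio ran from 0 to 11.8 with a median of 7.74. RUVBL2 was below its genome-wide ratio in 17 of 18 steps, with a range of 2.83 to 51.7 and a median of 23.2. Of the 1446 steps of the genome with at least 20 H3K4ox peaks, 59.8% were below for H2A.Z and 46.0% for RUVBL2. The H3K4ox number is the denominator of the ratio, so steps with like H3K4ox numbers were also counted. Among the 779 steps within the H3K4ox range of chromosome 22, from 106 to 306 peaks, 67.4% and 56.5% were below. Chromosome 15 had 42 of 42 steps below for H2A.Z and 41 of 42 for RUVBL2, and chromosome 16 had 39 and 36 of 41. A ratio below the genome-wide one in nearly every step is therefore shared with chromosome 15, and most steps of chromosome 16 were below as well. The size of the deficit was not even, as the ranges above show, and no test between the chromosomes was run.

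Leaving out the emptiest steps changed the ratios little. Without steps 6, 15 and 17, the 3 lowest for RUVBL2, 100 H3K4ox peaks were matched by 7.96 peaks of H2A.Z and 23.9 of RUVBL2. Without step 1 it had 7.19 and 20.4. Counted over all peaks, there were 298 RUVBL2 peaks per 100 H2A.Z peaks on chromosome 22 and 284 over all chromosomes. In the upper 50% by score the reductions were unequal, with 7.02 RUVBL2 and 3.92 H2A.Z peaks per Mb and the relative densities of 0.37 and 0.58 given above.

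**Figure D3:**
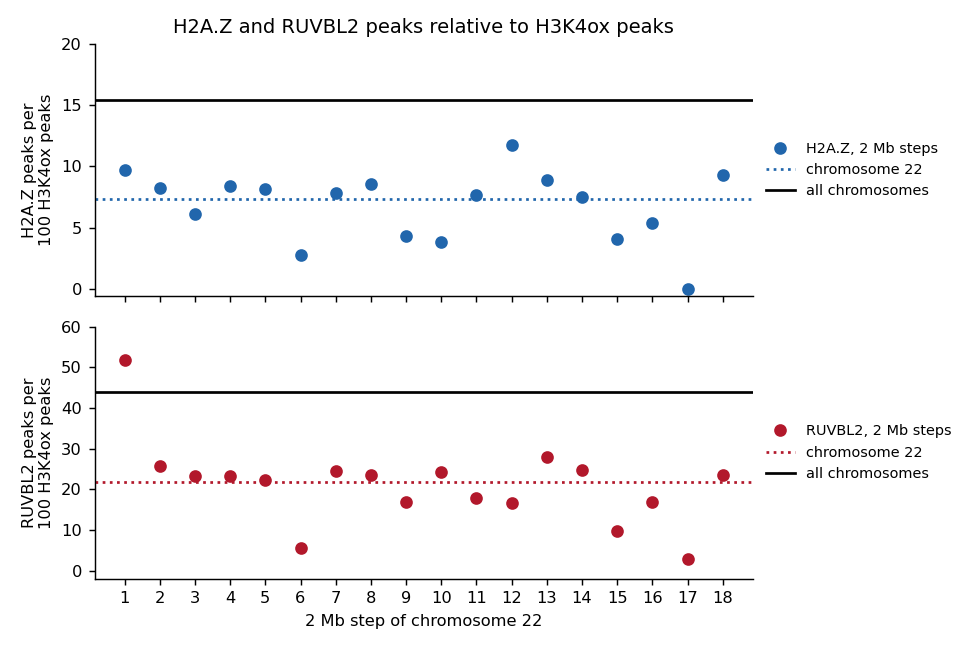
Peaks of H2A.Z (top) and of RUVBL2 (bottom) for every 100 peaks of H3K4ox (y axes, mean of both H3K4ox libraries) in the 18 steps of 2 Mb along chromosome 22 (x axis), with the value of the chromosome (dotted) and of all chromosomes (solid). Each H2A.Z point lies under the solid line at 15.5, and 1 RUVBL2 point, step 1 at 51.7, lies above the solid line at 43.9.

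Step 1, next to the centromere, was the exception for RUVBL2. Its 85 RUVBL2 peaks compared with 35.9 at the ratio of the chromosome. Of these, 43.5% had a score above the list's median, against 30.5% of the 688 RUVBL2 peaks in the other steps, and their median width was 869 bp against 716 bp. Of the 10 best-scoring RUVBL2 peaks of the chromosome, 4 lay in step 1, and of the 20 best, 7. H2A.Z was raised less there, with 16 peaks against 12.0 at the ratio of the chromosome, and 1 of its 10 best peaks lay in step 1. The headers of the lists carry the word multilocus, and only those of H3K4ox name an input. What reads that map to several places add in this step was not tested.

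Step 17, from 48 to 50 Mb, was the opposite case. It held 111 and 101 H3K4ox peaks, 0 H2A.Z peaks and 3 RUVBL2 peaks, against 7.75 and 23.1 expected at the ratios of the chromosome. Its H3K4ox peaks were the fewest of the 18 steps, but their share above the list's median was high, at 51.0% ± 0.7 (SD, n = 2), and differed from that of step 3 by less than the SD. Of them, 66.2% ± 4.4 were found in the other replicate, which differed from the 65.7% ± 1.4 of step 1 by less than the SD. The longest stretch without H2A.Z on the chromosome ran from 47734122 to 50465419, 2.73 Mb with 151.5 H3K4ox peaks (mean of both libraries) and 12 RUVBL2 peaks inside. The longest without RUVBL2, from 47924597 to 49159530 (1.23 Mb), lay within it and held 54.5 H3K4ox peaks. For comparison, the longest stretch without a peak of H3K4ox replicate 1 was 0.15 Mb. Step 6, from 26 to 28 Mb, was similar, with 147 ± 1 H3K4ox peaks, 4 H2A.Z and 8 RUVBL2 peaks. None of these H2A.Z and RUVBL2 peaks lay in a region held by both H3K4ox libraries. On the whole chromosome 35.1% of H2A.Z and 48.9% of RUVBL2 peaks did, and over all chromosomes 45.2% and 64.4%.

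The H3K4ox libraries agreed less on chromosome 22 than in the genome. Of the chromosome 22 peaks, 56.6% of replicate 1 and 59.2% of replicate 2 overlapped a peak of the other library by at least 1 bp, a mean of 57.9% ± 1.8 (SD, n = 2). Over all chromosomes the shares were 67.8% and 70.2%. Chromosome 22 was 3rd from the lowest, and chromosome 13 had 56.6% ± 2.3 and chromosome 16 57.4% ± 2.2, which differ from it by less than the SD. Merging both libraries gave 4962 regions on chromosome 22, of which 1975 (39.8%) held peaks of both and are called H3K4ox shared regions. They covered 6.72% of the span. A peak placed uniformly at random on the chromosome would have met the other library in 17% of positions, so the observed share was 3.40 ± 0.01 times the random one (SD, n = 2), against 3.67 over all chromosomes.

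RUVBL2 peaks lay in H3K4ox shared regions less often on chromosome 22 than on any of the other 22 chromosomes compared. The share was 378 of 773 (48.9%, 95% Wilson interval 45.4 to 52.4), against 64.4% over all chromosomes. Random positions on chromosome 22 would have given 11.2%, a ratio of 4.37, close to the 4.31 of all chromosomes and 7th from the lowest of the 23. For H2A.Z, 91 of 259 peaks (35.1%, 29.6 to 41.1) lay in shared regions, against 45.2% over all chromosomes. The random share was 11.1% and the ratio 3.16, against 3.25. H2A.Z peaks with a RUVBL2 peak numbered 47 (18.1%, 13.9 to 23.3), against 33.4% over all chromosomes. Their random share was 3.63% and the ratio 5.00, against 4.11. H2A.Z peaks with both H3K4ox and RUVBL2 numbered 25 (9.65%, 6.62 to 13.9), against 25.7% over all chromosomes, with a random share of 1.91% and a ratio of 5.04, against 4.57. The shares ranked 1st, 5th, 2nd and 2nd from the lowest in this order, and the ratios to random positions 7th, 6th, 17th and 13th. The shares of both H2A.Z overlaps with RUVBL2 depend on the number of RUVBL2 peaks. That number was low here, and the chromosome was selected on it, so these low shares are no separate result. The ratios of both overlaps with shared regions were under the medians of the 23 chromosomes, 4.80 and 3.45, and those of both overlaps with RUVBL2 were above theirs, 4.43 and 4.87. These ranks are not at equal RUVBL2 numbers. For H2A.Z with RUVBL2 the random share was 3.63% here and 8.13% over all chromosomes. Against random positions within 500 kb, both ratios with RUVBL2 on chromosome 22 were lower, at 3.64 and 3.71. The Wilson intervals cover only counting error, as if peaks were independent, and no test of the difference between chromosomes was run.

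**Figure D4:**
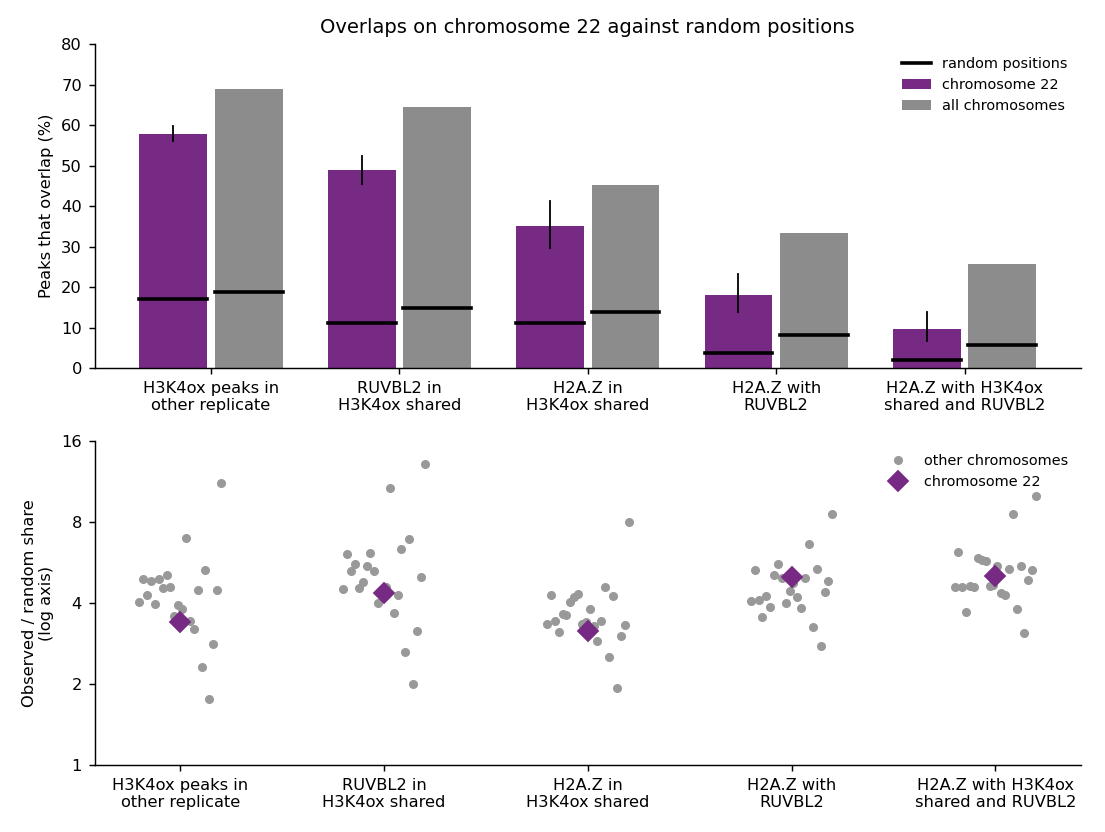
Top, percentage of peaks that overlap (y axis) for 5 overlaps (x axis) on chromosome 22 and on all chromosomes, with thick lines at the share of random positions and thin lines for the SD of 2 libraries (first overlap) or the 95% Wilson interval; bottom, observed over random share on a log axis for chromosome 22 (diamonds) and each other chromosome (grey points). The 5 purple bars are lower than the grey bars beside them, while the diamonds, from 3.16 to 5.04, lie among the grey points.

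The overlaps stood at the peak centres. H3K4ox shared regions covered 46.2% of RUVBL2 centres on chromosome 22 and 10.6% of positions 20 kb before them, against 62.3% and 15.1% on chromosomes 1 to 22 and X. At H2A.Z centres the coverage was 32.0%, with 10.4% at 20 kb before and 15.4% at 20 kb after, against 42.9%, 15.2% and 14.8%. A RUVBL2 peak covered 15.1% of the centres of H2A.Z and 3.86% of positions 20 kb before them, against 29.3% and 8.25%.

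Seen from H3K4ox, most sites on chromosome 22 were without both partners. Of the 1975 shared regions, 1560 (79.0%) held neither H2A.Z nor RUVBL2, against 57.4% of all shared regions in the genome. RUVBL2 was in 353 (17.9%, against 38.5%), H2A.Z in 90 (4.56%, against 10.3%) and both in 28 (1.42%, against 6.21%). Of single H3K4ox peaks, 13.3% ± 0.1 (SD, n = 2) overlapped RUVBL2, against 31.0% ± 0.4 in the whole lists, and 3.58% ± 0.34 overlapped H2A.Z, against 8.47% ± 0.01. Both shares were the lowest of the 23 chromosomes. These shares, and those of the shared regions, depend on the number of partner peaks, 773 for RUVBL2 and 259 for H2A.Z. That number was low here, and the chromosome was selected on it, so low shares are no separate result. For single peaks, the ratios to random positions were 3.57 ± 0.02 for RUVBL2 and 2.86 ± 0.23 for H2A.Z. Over chromosomes 1 to 22 and X they were 3.65 ± 0.08 and 3.04 ± 0.03.

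The overlaps were also set beside those of peaks with like scores, as a description only. Chromosome 22 has fewer RUVBL2 and H2A.Z peaks per H3K4ox peak, on which it was selected, and these shares are not adjusted for the number of partner peaks. With the genome-wide share of each of the 10 score groups applied to the chromosome 22 scores, 25.7% ± 0.03 (SD, n = 2) of its H3K4ox peaks would overlap RUVBL2 and 7.40% ± 0.06 would overlap H2A.Z, where 13.3% and 3.58% did. In both libraries the chromosome 22 share was the lower in 10 of 10 score groups for both partners. In group 10 it was 46.7% ± 1.7 for RUVBL2, against 79.5% ± 0.2, and 6.87% ± 0.10 for H2A.Z, against 19.3% ± 0.2. In group 1 it was 5.62% ± 0.95 and 2.55% ± 0.53, against 13.1% ± 0.8 and 5.12% ± 0.02. Group 10 peaks were narrower on chromosome 22, with medians of 1821 and 1880 bp in the 2 libraries against 2234 and 2100 bp, and group 5 peaks were not (789 and 753 bp against 777 and 756 bp). Agreement between the H3K4ox libraries would be 64.1% ± 1.4 at genome-wide shares, where 57.9% ± 1.8 was found, and the chromosome 22 share was the lower in 9 of 10 groups in both. In group 10 it was 100% ± 0 against 99.9% ± 0.03. Group 10 is at the ceiling over all chromosomes, so a lower share could hardly be told there. In groups 8 and 9 the chromosome 22 shares were 81.3% ± 4.3 and 94.2% ± 2.6, against 89.5% ± 1.7 and 97.4% ± 0.8.

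The same was computed for the other antibodies. RUVBL2 peaks would lie in shared regions in 56.2% at the genome-wide shares of their score groups, where 48.9% did, and H2A.Z peaks in 45.1%, where 35.1% did. H2A.Z peaks would meet RUVBL2 in 33.5%, where 18.1% did, again without adjustment for the low number of RUVBL2 peaks. High-scoring RUVBL2 peaks differed little from the genome. In RUVBL2 groups 8, 9 and 10 the shares in H3K4ox shared regions were 82.6%, 91.9% and 100% on chromosome 22, against 84.3%, 94.3% and 98.2%, while in groups 1 and 5 they were 29.2% and 35.6%, against 42.1% and 54.7%. Group 4 was higher than the genome, with 51.7% against 48.5%. The 10 groups held between 29 and 125 peaks each.

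**Figure D5:**
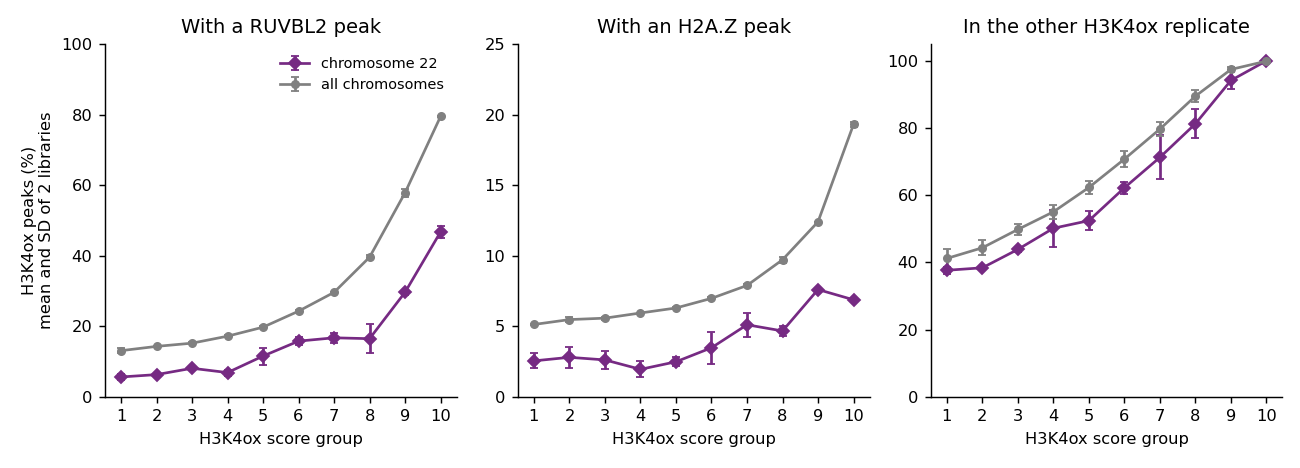
Percentage of H3K4ox peaks (y axes, mean and SD of 2 libraries) that overlap RUVBL2, H2A.Z or the other H3K4ox library in each of 10 H3K4ox score groups (x axes, 1 lowest), on chromosome 22 and on all chromosomes. The chromosome 22 line lies under the other in each group for RUVBL2 and H2A.Z, with 46.7% against 79.5% for RUVBL2 in group 10, and meets it in group 10 for the other library.

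The best-scoring sites are given by hg19 position, because an hg19 gene annotation was not used here, and their scores are the authors'. The 5 best H3K4ox shared regions of chromosome 22 were without H2A.Z and RUVBL2. First was 50773249 to 50779519 (6271 bp), with scores of 3094 and 2829 in replicates 1 and 2, both 23rd in their whole list. Second was 20149263 to 20152255, with 2256 and 2248, and 3rd was 48977867 to 48981911, with 2058 and 1956. The latter lay in step 17, inside the longest stretches without H2A.Z and without RUVBL2. The 4th was 29515822 to 29517007, with 1370 and 1256, and 5th 46374930 to 46377891, with 1210 and 1162. Chromosome 22 thus did hold some of the highest H3K4ox scores of the genome beside its many low ones. None of these 5 met a peak of either other antibody. Among the 20 best shared regions 2 held RUVBL2 and 0 held H2A.Z, and among the 50 best these numbers were 18 and 2. Of all 1975 shared regions of chromosome 22, 17.9% held RUVBL2 and 4.56% held H2A.Z. RUVBL2 was thus absent from the 5 best but not from the 50 best. High-scoring H3K4ox sites are the closer comparison. Of single H3K4ox peaks in group 10, 46.7% overlapped RUVBL2 on chromosome 22 and 79.5% over all chromosomes. For H2A.Z these shares were 6.87% and 19.3%.

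RUVBL2 peaks with the best scores lay in H3K4ox shared regions, 5 of 5, as did 98.2% of RUVBL2 group 10 peaks over all chromosomes. The best, 29061249 to 29065076, had a RUVBL2 score of 741, 60th in the list, with H3K4ox scores of 717 and 366 and an H2A.Z peak at 50.5, near the lowest score of 50. The 3rd, 28927316 to 28930863, with a score of 402, lay near it in step 7. The other 3 were in step 1: 17144228 to 17147393 (score 440), 17249243 to 17252867 (398) and 16931284 to 16933983 (388). The best RUVBL2 peaks thus fell into 2 steps.

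Of the 5 H2A.Z peaks with the best scores, 2 met no peak of another antibody. The best, 42932356 to 42936463 (4108 bp, score 492, 206th in its list), overlapped H3K4ox in both libraries (227 and 224) and a RUVBL2 peak of score 70.1. The next 4 had no RUVBL2 peak: 18631953 to 18634262 (390), 31555414 to 31556307 (313), 29976913 to 29978000 (300) and 39794718 to 39795715 (299.9). The 2nd and the 4th were alone, and the 3rd met a peak of H3K4ox replicate 1 only (53.3). The 5th also met a peak of replicate 1 only (102.9), in a shared region whose replicate 2 peak lay outside the H2A.Z peak. Of all H2A.Z peaks, 61.8% on chromosome 22 and 64.9% over all chromosomes overlapped an H3K4ox peak of either library. The 99th percentile of H2A.Z scores on chromosome 22 was 305 against 395 in the whole list, but with 259 peaks it rests on the few best. At the 75th and 90th percentiles the chromosome 22 score was 1.03 and 0.98 times that of the list.

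Among the 28 shared regions with all 3 antibodies, the best by mean rank was 16370356 to 16373212 in step 1. Its H3K4ox scores were 297 and 218, its H2A.Z score 128 and its RUVBL2 score 106. It was followed by 21764662 to 21769434 (230, 366, 96.0 and 165, in the same order), 42936671 to 42940874 (213, 191, 91.6 and 135), 36787972 to 36789352 (156, 142, 120 and 88.4) and 42063774 to 42065309 (228, 249, 79.8 and 92.9). The third of these lay beside the best H2A.Z peak. None of the 5 was among the best 5 of a single antibody. The 28 regions were wide, with a median of 1334 bp against 1006 bp for the 1975 shared regions, and wide regions meet other peaks more often at random.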

How the data were processed

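Each ChIP library has a separate list deposited by the authors. Per the file headers and peak names, the caller was MACS. The sources used here give no version or settings for it. The genome build hg19 and the aligners Bowtie and TopHat stand in the submitters' processing notes. The deposited score of each peak is the authors' own, its unit is not given, and it was used to rank or group peaks within a list. Samples were grouped by the antibody in the titles. Chromosome 22 and the comparisons were chosen with earlier results of these data known.

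Peaks were assigned to steps by their centre, and positions are counted from 1. Overlap meant at least 1 bp. The share at random positions was computed exactly, from the gaps between targets, for each peak's width and every start between the outermost peaks of its chromosome. It involved no resampling and gave no p-value, and the code was tested on simulated data. Sites were named as the 5 best per antibody and the 5 best of all 3 antibodies, and steps as the 3 densest and 3 sparsest. Other settings were 1 Mb, 4 Mb and shifted steps, the upper 50% by score, covered bases, other lengths, 800 to 900 bp peaks, 50% coverage (random starts every 10 bp), 200 bp centres, random positions within 500 kb and leaving out each H3K4ox library. The gene lists planned needed an hg19 annotation and were not used here. Python 3.11.15, numpy 2.4.6, scipy 1.17.1 and matplotlib 3.10.9 were used.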

Additional observations from a re-analysis of the deposited data

How the results depend on the processing

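The H3K4ox relative density of chromosome 22 was 1.09 and turned below 1 in the upper 50% by score (0.883) and as covered bases (0.922). With length as 1 Mb windows that hold a peak it was 1.04, and without 1 library 1.08 to 1.10. RUVBL2 moved from 0.57 to 0.372 in the upper 50% and 0.446 as covered bases. Above the upper quartile lay 15.03% of H3K4ox, 27.03% of H2A.Z and 11.4% of RUVBL2 peaks. At 800 to 900 bp the shares above the median were 40.2%, 70.7% and 41.4%. Steps below the genome-wide ratio were 94.4% to 100% under each setting, with 100% for RUVBL2 in 4 Mb steps.

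Overlap ratios stayed above 1 under each setting. In the order of H3K4ox replicates, RUVBL2 in H3K4ox, H2A.Z in H3K4ox, H2A.Z with RUVBL2 and the three-way overlap, 50% coverage gave 6.32, 6.96, 4.78, 7.995 and 8.62. Centres of 200 bp gave 11.1, 10.05, 8.62, 10.6 and 15.1. The upper 50% by score gave 6.02, 9.02, 3.94, 3.32 and 3.25, the last pair from 7 and 4 peaks. Random positions within 500 kb gave 2.999, 3.64, 2.51, 3.64 and 3.71. With 1 H3K4ox library, RUVBL2 in H3K4ox gave 3.64 to 3.65, H2A.Z in H3K4ox 2.68 to 3.06 and the three-way overlap 5.25 to 5.56. The cause of these shifts was not tested. No paired analysis was possible because only H3K4ox has more than 1 list. The depth behind the lists is unknown, and 259 H2A.Z peaks set the widest intervals.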

Other observations

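RUVBL2 scores on chromosome 22 were lowest in peaks that met neither H2A.Z nor an H3K4ox shared region, with a median of 58.5 (373 peaks, 48.3% of the RUVBL2 peaks, against 33.0% over all chromosomes), close to the 60.7 of that class over all chromosomes. The distance from the genome was larger in peaks within shared regions. Those with H2A.Z had a median score of 79.2 (28 peaks) against 113.25, and those without H2A.Z had 70.7 (350 peaks) against 87.9. Those with H2A.Z outside shared regions had 58.6 (22 peaks) against 64.2, which is near the lowest class. H2A.Z scores had no such order. Their medians were 69.7 in peaks that met neither (146 peaks, against 66.4), 68.6 with H3K4ox alone (66 peaks, against 66.0), 59.6 with RUVBL2 alone (22 peaks, against 66.3) and 63.5 with both (25 peaks, against 67.8). These differences were not tested.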
